A study of Mus musculus with 12 samples.

Results

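The genes described here are the machinery of chromatin looping: Ctcf, the cohesin ring and accessory subunits Rad21, Smc1a, Smc3, Stag1 and Stag2, the cohesin loader Nipbl, and the release and regulatory factors Wapl, Pds5a and Pds5b. They were taken by gene symbol and make up 10 of the 55335 genes listed in every library, each symbol matching a single identifier. In the mm10 annotation (GENCODE M21), Ctcf (ENSMUSG00000005698) spans chr8:105636568-105682922 and Smc3 (ENSMUSG00000024974) spans chr19:53600398-53645833, both on the plus strand. Stag1 (ENSMUSG00000037286) spans chr9:100597798-100959375 on the plus strand and Rad21 (ENSMUSG00000022314) chr15:51962240-51991747 on the minus strand. RNA-seq covered 12 libraries of bone marrow-derived dendritic cells (BMDCs) in 4 groups of 3 replicates: untreated WT, LPS-stimulated WT (WTL), untreated CTCF-deficient (KO) and LPS-stimulated CTCF-deficient (KOL). All 4 groups came from C57BL/6 mice that carry CreER, a tamoxifen-activated Cre expressed from the ubiquitous Rosa26 locus. KO and KOL cells carried loxP-flanked CTCF fl/fl alleles in addition, and WT and WTL cells came from CreER littermates. The study's methods name young adult animals of both sexes for its experiments, and the sex read from these libraries is given below. Bone marrow was cultured with GM-CSF, a myeloid growth factor, for 6 days, and CD11c+ cells were then taken as BMDCs. LPS, a bacterial cell wall component, was given at 100 ng/ml for 3 h. 4-hydroxytamoxifen was added to the cultures on their first day, and the study's text limits the resulting deletion of Ctcf to the knockout cells. Its wording does not settle whether WT cultures received the drug as well. If they did not, the effect of the drug on KO cultures cannot be told apart from loss of Ctcf. The exons flanked by loxP are not given in the sources used here, and the gene-level values count all exons of Ctcf together.

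CTCF is a zinc finger protein that binds DNA at a long asymmetric motif and marks the ends of many chromatin loops. Cohesin is a ring of SMC1A, SMC3 and RAD21 with a STAG1 or STAG2 subunit. It is loaded by NIPBL with its partner MAU2, extrudes DNA into a loop until it meets bound CTCF, and is released by WAPL with PDS5A or PDS5B. The ring also holds sister chromatids together in dividing cells. STAG1 and STAG2, like PDS5A and PDS5B, are paralogs of which a complex holds 1 at a time.

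Library totals lay between 12769773 and 16586334 expected counts. The CD11c+ label was checked on 7 dendritic cell markers by their summed TPM (a level per transcript length that sums to the same total in every library). The sum was 7341 to 7833 in WT and 5934 to 6214 in KO, the lowest group, and Cd74 alone was at 4130 to 4377 in KO. Of the 7 markers, 1 was called higher and 3 lower in KO against WT, beside 22.2% and 22.4% of all genes. Itgax was higher (log2 fold change 0.83), and Flt3 (-2.00), H2-Ab1 (-0.76) and Ccr7 (-0.61) were lower. In KOL against WTL, 3 were higher and 1 lower, beside 21.4% and 23.3%. Markers of B cells, T and NK cells, mast cells and basophils, and erythroid cells summed to at most 1.13 TPM in any library, and those of eosinophils to at most 4.85. The 6 macrophage markers summed to 461 to 501 TPM in WT, 573 to 597 TPM in KO, 178 to 249 TPM in WTL and 166 to 229 TPM in KOL. Of these, 3 were called higher and 3 lower in KO against WT, beside 22.2% and 22.4% of all genes. Csf1r (0.73, at 351 TPM in WT and 511 TPM in KO), C1qa (1.27) and Cd163 (1.37) were higher. Adgre1 (-0.81), Mertk (-1.16) and Fcgr1 (-1.93) were lower. The 6 neutrophil and precursor markers summed to 370 to 393 TPM in WT, 205 to 237 TPM in KO, 334 to 424 TPM in WTL and 287 to 334 TPM in KOL. Of the 4 that passed the filter, 1 was called higher and 3 lower in KO against WT, beside 22.2% and 22.4% of all genes. Csf3r was higher (0.785), and Mpo (-1.65), S100a8 (-0.445) and S100a9 (-1.68) were lower. The part of the cell types behind these markers in the results below was not tested. Among the neutrophil markers, Ly6g was at no more than 3 counts in every library of WT, WTL and KO, and Elane in every library of KO and KOL. The 4 Y-linked marker genes had at most 3 counts in every library. Xist, the RNA that coats the inactive X chromosome, was expressed in all, so the libraries read as female. It was higher in KO than in WT (log2 fold change 0.65, edgeR adjusted p = 0.0226), which stands beside the X-linked genes Smc1a and Stag2. Its part in their values was not tested. Labels of the series call the samples biological triplicates, and nothing ties a culture to an animal, so p-values measure the spread between these samples.

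Among the LPS-treated libraries, WTL replicate 1 and KOL replicate 2 stood apart. WTL replicate 1 was the highest of its group for 10 of the 10 genes, and KOL replicate 2 was the highest of its group for 8 of them, the exceptions being Ctcf and Rad21. The deviation of WTL replicate 1 from its group rose with transcript length (Spearman rho 0.43 across 9338 genes of this library, as a description), and so did that of KOL replicate 2 (rho 0.49). WTL replicate 2 stood apart in another way, with 5.17% of its counts on ribosomal RNA genes compared with at most 1.185% in the other 11 libraries. The chi-square per degree of freedom between replicates over all genes was 81.5 and 76.7 for its pairs, and 29.5 for WTL replicates 1 and 3. In the other 4 LPS-treated libraries the rho with length lay between -0.21 and -0.45. Nipbl, whose 9423-base transcript is the longest of the 10, deviated most, by 0.37 log2 units in WTL replicate 1 and by 0.41 in KOL replicate 2. WTL replicate 1 and KOL replicate 2 stand out as columns in the plot of deviations, and results that rest on these 3 libraries are given below with and without them.

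**Figure D1:**
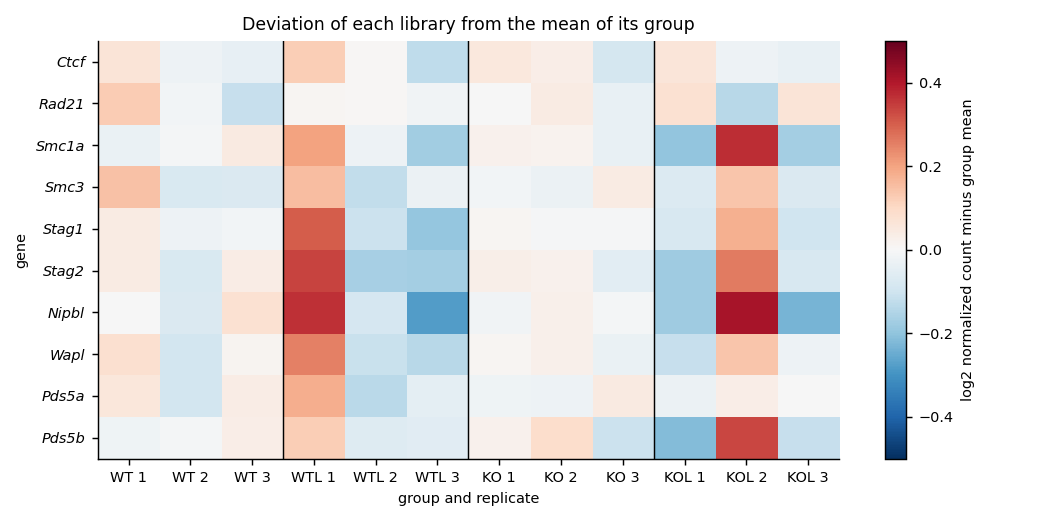
Each square is the log2 normalized count of a gene in a library minus the mean of its group (colour scale from -0.5 to 0.5 log2 units); columns are the 12 libraries by group and replicate, and rows are the 10 genes. WTL replicate 1 is above its group mean for every gene, by up to 0.37 log2 units. KOL replicate 2 is above its group mean by up to 0.41 for all genes but Ctcf (-0.026) and Rad21 (-0.138). The 6 untreated libraries deviate by less.

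In untreated WT cells the 10 genes spanned a range of levels per length. Rad21 was the most abundant with 53.0 ± 5.4 TPM (SD, n = 3), and Pds5b the least with 7.27 ± 0.32 TPM. Between them, in falling order of mean TPM, stood Pds5a with 48.6, Smc1a with 41.1, Wapl with 35.5, Ctcf with 35.1, Stag2 with 34.5, Nipbl with 18.8, Smc3 with 17.2 and Stag1 with 13.2. Rad21 and Pds5a overlapped between libraries, as did Wapl with Ctcf, Ctcf with Stag2, and Nipbl with Smc3. The other neighbours in this order did not overlap. Among all 14008 genes that passed the filter on low counts, mean TPM in WT placed Rad21 at percentile 83.9, Smc3 at percentile 59.7 and Pds5b at percentile 40.1. The order was not the same in KO cells, where Pds5a with 40.5 TPM and Stag2 with 39.8 TPM stood first and Ctcf with 22.0 TPM was the sixth. All 10 genes passed the filter in every comparison.

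The deletion was checked on Ctcf first. Normalized counts, which are expected counts scaled by the trimmed mean of M values, were 1051, 987 and 975 in WT replicates 1 to 3 and 570, 562 and 516 in KO. Under LPS they were 886, 817 and 745 in WTL and 563, 530 and 526 in KOL. No KO or KOL library reached the lowest WT or WTL library. Ctcf was downregulated in KO to 54.7% of the WT mean (log2 fold change -0.87 ± 0.08 SE, Benjamini-Hochberg adjusted p = 3.94e-07 in the quasi-likelihood test of edgeR) and in KOL to 66.2% of the WTL mean (-0.59 ± 0.08, edgeR adjusted p = 2.39e-05). The study reports CTCF depleted at the mRNA level and, by western blot, at the protein level. It also reports CTCF binding lost or strongly lowered at its sites in KO and KOL. The RNA percentages given here do not measure CTCF protein. The remaining Ctcf counts can come from cells that kept an allele or from transcripts of a deleted allele, which cannot be told apart here. In bulk samples such as these, fewer cells expressing a gene and less RNA per cell cannot be told apart either. LPS lowered Ctcf in WT cells (-0.30 ± 0.08, edgeR adjusted p = 0.00319), while in CTCF-deficient cells its change was -0.02 with a 95% confidence interval from -0.19 to 0.14. The difference between these responses did not pass its own test (interaction of 0.28, edgeR adjusted p = 0.098). The change in CTCF-deficient cells also depended on scaling, being -0.40 under library size alone and 0.12 with an offset for transcript length.

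The transcript length that RSEM weights by isoform abundance also differed at Ctcf. It was 3010, 3030 and 2867 bases in WT and 2557, 2432 and 2387 bases in KO, with no overlap. In WTL it was 3162, 3191 and 2813 bases and in KOL 2790, 2520 and 2926 bases, where the groups overlapped. Of all genes tested, 6.67% had shorter lengths in KO than in WT without overlap and 8.25% longer ones. Among the 10 genes Ctcf was the only shorter one in that comparison, and Smc1a, Smc3 and Stag1 were longer. In KOL against WTL, Pds5a and Pds5b were shorter and Stag1 longer without overlap, beside 3.7% and 4.7% of all genes. LPS lengthened Smc1a in WT cells, beside 6.67% of genes longer and 7.53% shorter, and shortened Pds5a in CTCF-deficient cells, beside 10.3% shorter and 9.76% longer. Over both treatments the Ctcf length was lower by 410 bases in CTCF-deficient libraries (-410.2, exact two-sided permutation test within treatment over 400 relabelings, p = 0.01, where the smallest possible p is 0.005). The permutation test was run on Ctcf alone, so its p is unadjusted and has no share of all genes beside it. The annotation lists a single protein-coding Ctcf transcript of 3782 bases with 12 exons and shorter non-coding ones of 469 to 1554 bases. A lower weighted length therefore means that the short forms made up a larger share of the estimated Ctcf transcripts, which is not the share of reads. Because TPM divides by this length, Ctcf TPM fell less than its count, from 35.1 ± 1.8 in WT to 22.0 ± 0.9 in KO (SD, n = 3).

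**Figure D2:**
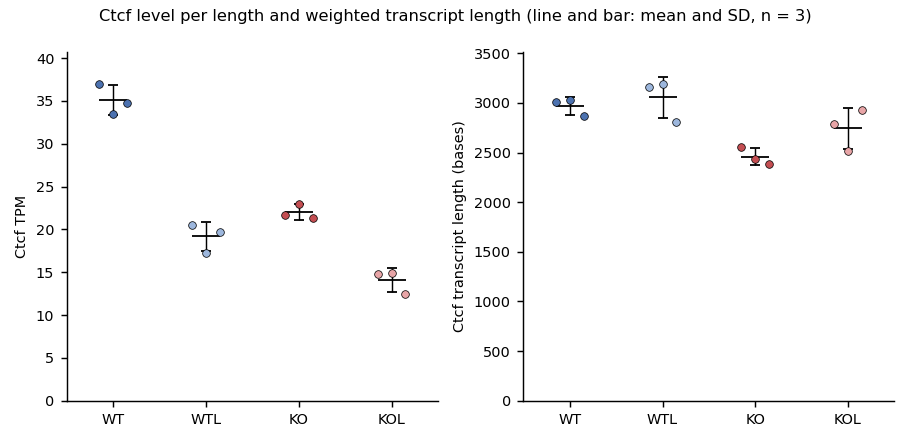
Ctcf TPM (left) and the RSEM-weighted Ctcf transcript length in bases (right) in every library by group; lines and bars are the mean and SD of 3 replicates. KO libraries lie between 21.3 and 23.0 TPM and between 2387 and 2557 bases, all under the WT libraries on both axes.

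CTCF depletion in untreated cells shifted the RNA of cohesin subunit genes in opposite directions. Smc3 and Stag1 were upregulated in KO, and Rad21 fell with Ctcf. The calls are 2 higher and 2 lower of 10 genes, beside 22.2% of all 14008 genes called higher and 22.4% called lower in this comparison, so their number is near that of any genes. The libraries of KO and WT did not overlap for any of the 10 genes, 4 being higher and 6 lower in KO; of all genes tested, 31.9% were higher and 32.3% lower without overlap. The median log2 fold change of the 10 genes was -0.15, beside -0.01 for all genes. All 4 called genes also passed the study's fold cutoff of 1.3, beside 17.3% of genes higher and 17.2% lower.

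Rad21, the kleisin that closes the ring, had normalized counts of 2245, 2038 and 1901 in WT and 1530, 1573 and 1490 in KO. All KO libraries lay under all WT libraries, at 74.3% of the WT mean (log2 fold change -0.43 ± 0.08, edgeR adjusted p = 0.00043). Smc3, an ATPase arm of the ring, had 807, 691 and 694 in WT and 980, 969 and 1017 in KO, a rise to 135% of the WT mean (0.44 ± 0.09, edgeR adjusted p = 0.00107). Smc1a, the other arm, had 1417, 1441 and 1494 in WT and 1235, 1232 and 1186 in KO. Its groups were separate, yet its change of -0.25 did not pass the test (edgeR adjusted p = 0.127). The partners of the SMC dimer thus had changes of opposite sign, of which that of Smc3 passed the test.

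Stag1, the less abundant STAG paralog, showed the largest rise of the 10 genes. Its normalized counts were 647, 617 and 622 in WT and 1075, 1064 and 1063 in KO, or 170% of the WT mean (0.76 ± 0.11, edgeR adjusted p = 5.54e-05). Replicates within each group were close together compared with the gap between the groups. Stag2 had 1790, 1651 and 1786 in WT and 2152, 2138 and 2032 in KO, a difference of 0.27 that did not pass the test (edgeR adjusted p = 0.107).

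The loader and the release factors did not pass the test in this comparison. Nipbl had 1804, 1718 and 1908 in WT and 1982, 2044 and 1996 in KO (log2 difference 0.15, 95% confidence interval -0.20 to 0.50). Wapl, which opens the ring, had 1699, 1510 and 1623 in WT and 1490, 1507 and 1445 in KO (-0.12, interval -0.34 to 0.09). For Pds5a the counts were 1701, 1537 and 1678 in WT and 1435, 1431 and 1502 in KO, and for Pds5b 414, 418 and 430 in WT and 377, 395 and 345 in KO. Differences of these paralogs were -0.17 and -0.18, and both intervals reached 0. The fit shares its spread among all 12 libraries, including the more variable LPS-treated ones. With only the 6 WT and KO libraries in the fit, all 10 genes were called, 4 higher and 6 lower, beside 30.7% of all genes higher and 31.3% lower in that fit, Wapl with the weakest support (edgeR adjusted p = 0.0297) and Nipbl among the higher (0.15, edgeR adjusted p = 0.0055). Smc3 was 0.24 with limma on log2(TPM + 1) and did not pass there (adjusted p = 0.0605).

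**Figure D3:**
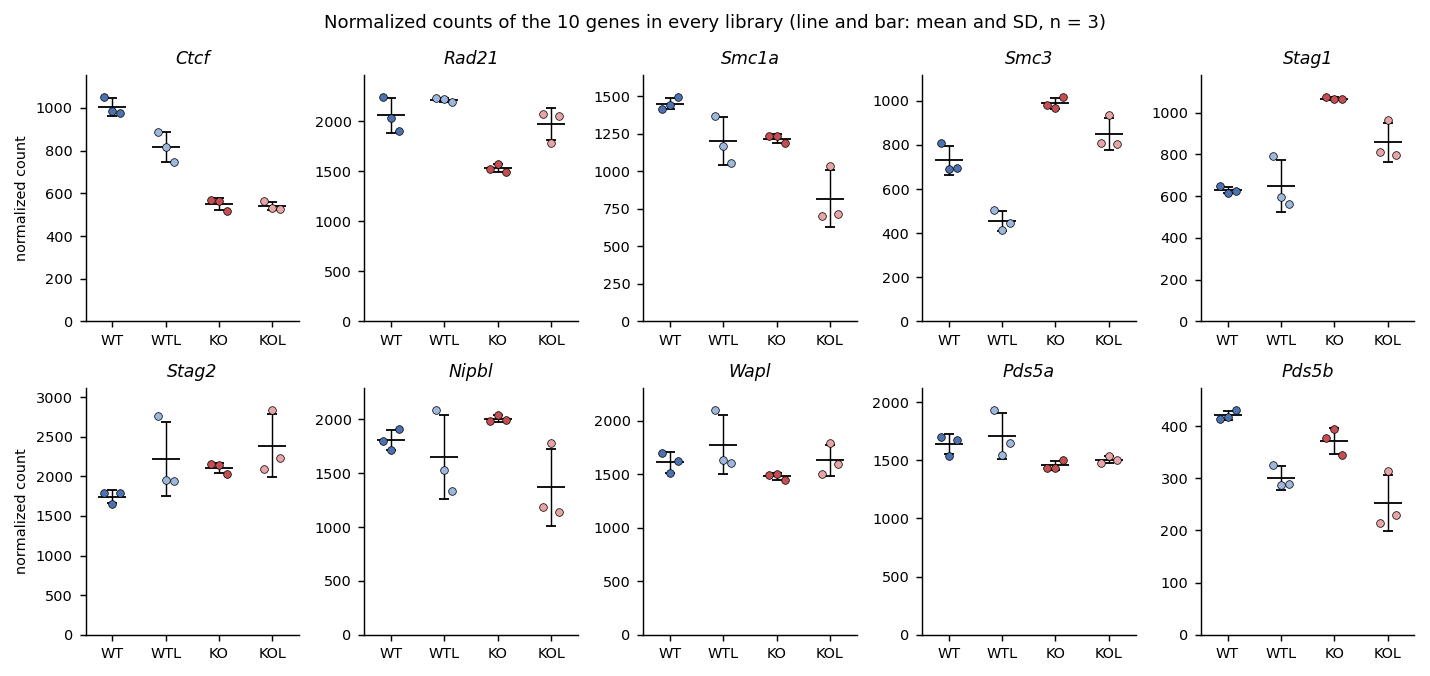
Normalized counts (linear axis from 0) of each of the 10 genes in every library, grouped as WT, WTL, KO and KOL; lines and bars are the mean and SD of 3 replicates. Rad21 is lowest in KO at 1490 to 1573, Stag1 is highest there at 1063 to 1075, and Nipbl spreads from 1143 to 1784 in KOL.

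Because Smc3 and Stag1 were higher together, the 250 bases before their transcription starts are shown, taken from the RefSeq promoter table (build GRCm38.p6, which has the coordinates of mm10). Smc3 is read from chr19:53600146-53600395 on the plus strand and Stag1 from chr9:100643198-100643447 on the plus strand. No annotated exon of GENCODE M21 lies in either window; the Stag1 window lies inside the Stag1 gene span, whose first annotated base is 100597798. Capitals mark a match to a form of the NF-kB RELA motif in Smc3, and in Stag1 matches to CCAAT, the NF-Y box read on the minus strand, and to TTTCCCGC, a form of the E2F motif.
Smc3: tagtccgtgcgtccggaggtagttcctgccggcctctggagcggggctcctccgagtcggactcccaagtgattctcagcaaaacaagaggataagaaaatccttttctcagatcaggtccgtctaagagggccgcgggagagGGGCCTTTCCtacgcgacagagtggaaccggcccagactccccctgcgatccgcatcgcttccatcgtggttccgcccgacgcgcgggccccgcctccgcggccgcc
Stag1: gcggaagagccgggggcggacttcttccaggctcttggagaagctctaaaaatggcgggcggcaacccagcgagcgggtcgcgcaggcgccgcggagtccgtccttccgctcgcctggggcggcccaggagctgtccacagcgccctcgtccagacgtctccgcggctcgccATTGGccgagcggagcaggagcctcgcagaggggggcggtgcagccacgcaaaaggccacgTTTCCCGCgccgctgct
The RELA letters lie 107 to 98 bases before the Smc3 start and were found in 1.41% of 32851 promoter windows of the same length. The E2F letters lie 17 to 10 bases before the Stag1 start and were found in 0.895% of windows, and CCAAT in 33.8%. The 2 windows share no motif of the 6 searched on both strands. Of the 10 genes, 7 had an entry in the table (all but Rad21, Stag2 and Nipbl). CCAAT was also found at Smc1a, Wapl and Pds5b, while a short form of the CTCF motif, the ETS form CCGGAAG and a form of the YY1 motif had no match in the 7 windows. Those letters were found in 2.07%, 6.91% and 0.301% of all windows, respectively. GC content of the 7 windows was 56.8% to 80.4%. A match is a description of letters and not a measured binding site.

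CTCF depletion was next compared in LPS-stimulated cells. Smc3 and Stag1 were again higher and Ctcf lower, and Smc1a was the cohesin subunit that fell. Rad21 did not pass here, and for neither gene did the difference between this comparison and the untreated one pass its own test (interaction of 0.26 for Rad21 and -0.30 for Smc1a, edgeR adjusted p = 0.124 and 0.295). Of the 10 genes, 2 were called higher and 2 lower, beside 21.4% of all genes called higher and 23.3% called lower, and their median was -0.17, beside -0.03 for all genes. Without overlap between the groups, 2 were higher and 4 lower, beside 21.9% and 24.4% of all genes. Smc3 and Ctcf also passed the study's fold cutoff of 1.5, beside 12.5% of genes in each direction. Smc3 normalized counts were 504, 416 and 444 in WTL and 808, 934 and 806 in KOL, or 187% of the WTL mean (log2 fold change 0.90 ± 0.09, edgeR adjusted p = 2.33e-06). Every KOL library was above every WTL library. Stag1 counts were 793, 597 and 562 in WTL and 810, 966 and 799 in KOL (0.40 ± 0.11, edgeR adjusted p = 0.00916). The lowest KOL library stood just above WTL replicate 1, and without that replicate and KOL replicate 2 the change was 0.47. With limma on log2(TPM + 1), Stag1 was at 0.25 and did not pass (adjusted p = 0.178).

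Smc1a counts in the stimulated cells were 1370, 1171 and 1056 in WTL and 700, 1038 and 713 in KOL (-0.55 ± 0.13, edgeR adjusted p = 0.00337). The groups did not overlap, KOL replicate 2 coming closest to WTL. Rad21 counts were 2232, 2227 and 2192 in WTL and 2074, 1789 and 2057 in KOL. Those groups were separate too, but the difference of -0.17 did not pass the test (edgeR adjusted p = 0.0968). Wapl (1502, 1789 and 1597 in KOL) and Stag2 (2093, 2834 and 2237 in KOL) overlapped with WTL. Without WTL replicate 1, Stag2 was called higher (0.29, edgeR adjusted p = 0.0391), beside 19.3% of all genes called higher in that fit. Pds5a (1474, 1540 and 1502 in KOL against 1930, 1548 and 1646 in WTL) did not overlap and did not pass the test (edgeR adjusted p = 0.0889), but did without WTL replicate 2 (-0.25, edgeR adjusted p = 0.0334). Nipbl counts were 2085, 1526 and 1333 in WTL and 1186, 1784 and 1143 in KOL, and Pds5b counts 326, 287 and 288 in WTL and 214, 314 and 230 in KOL. Neither passed in the full fit, with differences of -0.26 and -0.25. Without KOL replicate 2, both were called lower, Nipbl at -0.50 (edgeR adjusted p = 0.00717) and Pds5b at -0.43 (edgeR adjusted p = 0.00145), so the count of lower genes became 4. Without both libraries that stood apart it was also 4, Nipbl at -0.30 and Pds5b at -0.38, beside 26.8% of all genes called lower in that fit.

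**Figure D4:**
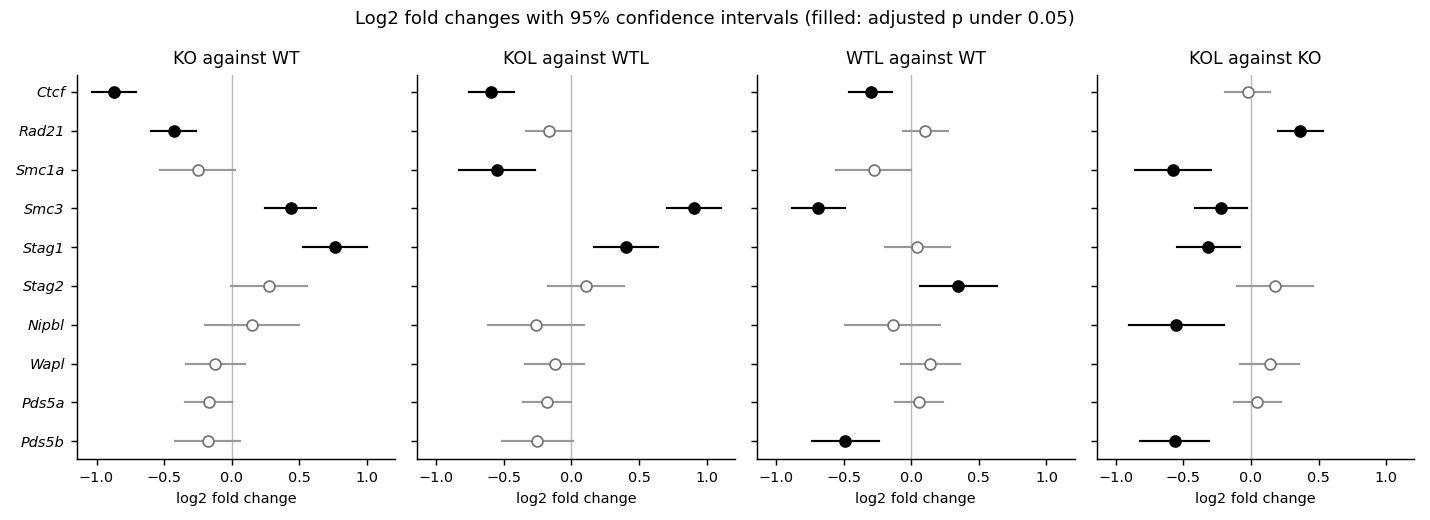
Log2 fold changes (points) with 95% confidence intervals (lines) of the 10 genes in the 4 comparisons; filled points passed edgeR's test at an adjusted p under 0.05. Ctcf, Smc3 and Stag1 are filled in both panels on CTCF depletion, whereas Rad21 is filled for KO against WT and Smc1a for KOL against WTL.

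LPS changed a large part of the transcriptome, and the scaling of libraries matters for its direction. Under library size alone, the median gene was lower by 0.53 log2 units in WTL than in WT (-0.53), and 2031 genes were called higher and 8413 lower, compared with 4209 and 4224 under the scaling used here. In KOL against KO the median moved to -0.40. The changes below are therefore relative to the median gene. As a share of all transcripts, the summed TPM of the 10 genes was lower after LPS, from 296 to 318 in WT to 187 to 236 in WTL, and from 260 to 270.0 in KO to 182 to 209 in KOL.

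In WT cells, LPS downregulated Ctcf, Smc3 and Pds5b relative to the median gene, and Stag2 was called higher. These are 1 higher and 3 lower of 10 genes, beside 30% of all genes called higher and 30.2% called lower, with medians of -0.05 and -0.02. Without overlap, Stag2 was higher and Ctcf, Smc1a, Smc3 and Pds5b were lower, beside 31.8% and 33.3% of all genes. None of the 10 changed by the study's fold cutoff of 2 for LPS, beside 12.6% of genes higher and 9.99% lower. Smc3 fell from 807, 691 and 694 normalized counts to 504, 416 and 444, without overlap (-0.69 ± 0.09, edgeR adjusted p = 1.74e-05). Pds5b fell from 414, 418 and 430 to 326, 287 and 288, also without overlap (-0.49 ± 0.12, edgeR adjusted p = 0.00214), a call that was lost with limma on log2(TPM + 1) centred on the median gene (-0.32, adjusted p = 0.0645). The call of Stag2 is less firm, because its counts were 1790, 1651 and 1786 in WT and 2765, 1951 and 1945 in WTL, with replicate 1 far above the other two (0.35 ± 0.13, edgeR adjusted p = 0.0342). It was lost when any 1 WT replicate or WTL replicate 1 was left out, with 0.16 (edgeR adjusted p = 0.207) in the last case. Smc1a did not pass in the full fit (-0.28, edgeR adjusted p = 0.0771) and did without WTL replicate 1 (-0.38, edgeR adjusted p = 0.0217). Without both libraries that stood apart, Smc1a and Nipbl joined the lower genes, which became 5 beside 33% of all genes, and Stag2 was called at 0.16 (edgeR adjusted p = 0.0199). Rad21, Stag1, Wapl and Pds5a changed by 0.05 to 0.14, and none of these passed. Under library size alone, these 4 and Stag2 turned negative.

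In CTCF-deficient cells, LPS upregulated Rad21, and lowered Smc1a, Smc3, Stag1, Nipbl and Pds5b. That is 1 higher and 5 lower of 10 genes, beside 33.6% of all genes called higher and 33.9% called lower, with medians of -0.12 and -0.02. The same 6 genes were those whose groups did not overlap, beside 34.9% and 36.3% of all genes. Again none changed by the fold cutoff of 2, beside 15.1% of genes higher and 13% lower. Rad21 rose from 1530, 1573 and 1490 to 2074, 1789 and 2057, all above the KO libraries (0.37 ± 0.08, edgeR adjusted p = 0.000831). KOL replicate 2 was the lowest of its group for this gene. Under library size alone the same change was -0.01. Smc1a fell from 1235, 1232 and 1186 to 700, 1038 and 713 (-0.58 ± 0.13, edgeR adjusted p = 0.00133). Nipbl fell from 1982, 2044 and 1996 to 1186, 1784 and 1143 (-0.55 ± 0.16, edgeR adjusted p = 0.00862), and Pds5b from 377, 395 and 345 to 214, 314 and 230 (-0.56 ± 0.12, edgeR adjusted p = 0.00073). For all 3 genes KOL replicate 2 was the nearest to KO, and without it and WTL replicate 1 the changes were -0.79, -0.79 and -0.75. With centred limma, Pds5b was at -0.28 and did not pass (adjusted p = 0.0941).

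Stag1 and Smc3, the genes that were higher in KO, fell after LPS in CTCF-deficient cells, by smaller amounts. Stag1 went from 1075, 1064 and 1063 to 810, 966 and 799 (-0.32 ± 0.11, edgeR adjusted p = 0.0196), a call that was lost without KOL replicate 1 (-0.27) or replicate 3 (-0.26), after which 3 genes were called lower. Smc3 went from 980, 969 and 1017 to 808, 934 and 806 (-0.22 ± 0.09, edgeR adjusted p = 0.0403). That call was lost with DESeq2 (-0.21, adjusted p = 0.0674), with the size factors of DESeq2 in edgeR (-0.20, adjusted p = 0.0599), and when any 1 KO replicate or KOL replicate 1 or 3 was left out, and the value was -0.08 with an offset for transcript length (edgeR adjusted p = 0.293). Without WTL replicate 1 and KOL replicate 2, both calls stood, at -0.41 for Stag1 and -0.29 for Smc3. Ctcf, Stag2, Wapl and Pds5a did not pass, and with the length offset Stag2 (0.31), Wapl (0.27) and Pds5a (0.20) were called higher, giving 4 genes higher in place of 1, beside 35.1% of all genes higher in that fit.

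Whether the LPS response itself differed between genotypes was tested as an interaction, the log2 LPS response in CTCF-deficient cells minus that in WT cells. Smc3 was the gene that passed, with 0.47 ± 0.13 (edgeR adjusted p = 0.0224). It fell less after LPS in CTCF-deficient cells, where its level before LPS was higher. The background was 8.7% of all genes called higher and 8.75% called lower, so 1 higher and 0 lower of 10 genes is not above it; at an unadjusted p under 0.05 there were 3 higher and 1 lower, and DESeq2 also called 1 higher and 0 lower. The Smc3 call was lost without WTL replicate 2 (0.40), KO replicate 1 (0.46) or KO replicate 2 (0.45). Ctcf was at 0.28 (edgeR adjusted p = 0.098), Rad21 at 0.26 (edgeR adjusted p = 0.124) and Stag1 at -0.36 (edgeR adjusted p = 0.135). Without KOL replicate 2, 2 genes were called higher and 3 lower, beside 12.2% and 14% of all genes, and without it and WTL replicate 1, 3 were called higher and 3 lower, beside 14.3% and 16.3% of all genes. The 6 genes were then Ctcf (0.35), Rad21 (0.33) and Smc3 (0.47) higher, and Smc1a (-0.40), Nipbl (-0.45) and Stag1 (-0.29) lower. The comparisons named so far share their libraries, so they are not independent of each other.

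The RNA balance of genes whose proteins share a place in the complex is given per length, as a description. Shares and ratios of RNA, here and below, do not measure the make-up of the complex. Stag2 made up 70.8%, 72.6% and 73.6% of the summed Stag1 and Stag2 TPM in WT and 67.4%, 66.7% and 66.4% in KO, with no overlap. After LPS it made up 75.4%, 76.3% and 80.4% in WTL and 71.6%, 77.5% and 74.9% in KOL, which overlapped. The summed TPM of both STAG genes was 47.8 ± 1.6 in WT and 59.6 ± 0.7 in KO (SD, n = 3), so the sum was higher in KO along with the share of Stag1. Pds5a supplied 87.0 ± 0.3% of the Pds5 sum in WT and 86.8 ± 1.8% in KO. Its share was 90.7 ± 0.5% in WTL and 90.7 ± 1.6% in KOL. The Stag2 share was higher after LPS than before it in both genotypes, without overlap, and so was the Pds5a share.

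For the SMC dimer, Smc1a TPM divided by Smc3 TPM was 2.17, 2.60 and 2.47 in WT and 1.51, 1.56 and 1.42 in KO. In WTL it was 3.10, 3.09 and 2.79, and in KOL 1.06, 1.29 and 1.01. The 4 groups did not overlap on this ratio, from WTL at the top to KOL at the bottom. WTL replicate 1 and KOL replicate 2, which stood apart in the counts, were the highest of their groups here as well. Nipbl TPM divided by Wapl TPM, loader to releaser, was 0.53 ± 0.03 in WT, 0.70 ± 0.03 in KO, 0.43 ± 0.05 in WTL and 0.40 ± 0.09 in KOL (SD, n = 3). It was higher in KO than in WT in every library, from 0.66 to 0.73 in KO compared with 0.50 to 0.56 in WT. After LPS the genotypes overlapped.

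**Figure D5:**
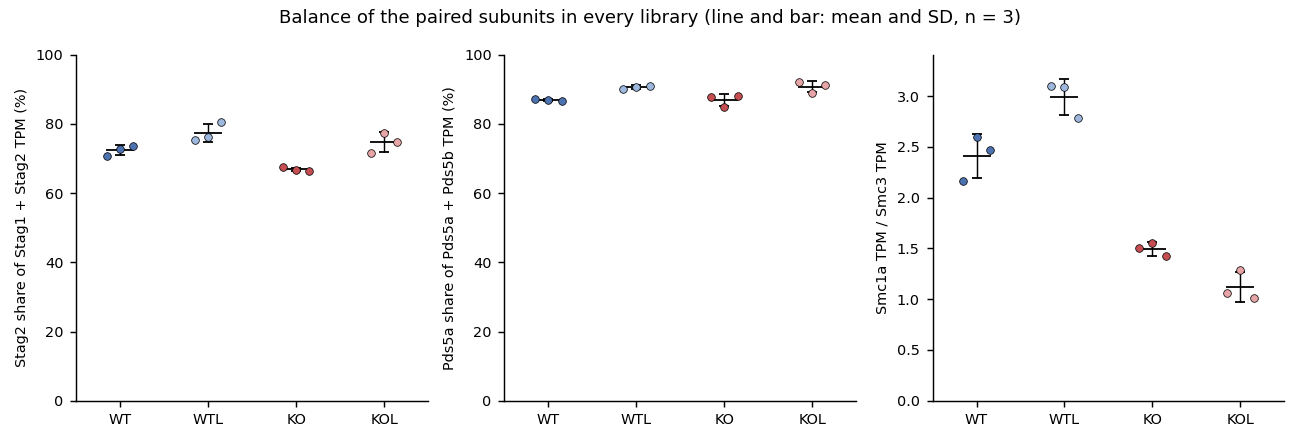
Share of Stag2 in the summed Stag1 and Stag2 TPM (left, percent), share of Pds5a in the summed Pds5a and Pds5b TPM (middle, percent) and Smc1a TPM divided by Smc3 TPM (right) in every library by group; lines and bars are the mean and SD of 3 replicates. The Stag2 share is lowest in KO at 66.4% to 67.4%, the Pds5a share is near 87% without LPS and near 91% with it, and the SMC ratio separates the 4 groups.

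Genes around the cohesin cycle were next described from lists. Of 11 partners that load, acetylate, protect or cleave the ring, 2 were higher and 7 lower in KO than in WT, beside 22.2% and 22.4% of all genes (median log2 fold change -0.69, compared with -0.01 for all genes tested). Cdca5, or sororin, which protects cohesin after replication, fell by 1.09, and Pttg1, or securin, which holds back the cleaving enzyme separase, rose by 0.61. Mau2, the partner of Nipbl, rose by 0.30 (edgeR adjusted p = 0.0463). In KOL against WTL, 7 partners were lower, beside 23.3% of all genes, with Espl1, or separase, at -1.62. After LPS, 2 were higher and 6 lower in WT cells, and 2 and 7 in CTCF-deficient cells, beside 30% to 33.9% of all genes in either direction. Esco2, a cohesin acetyltransferase of S phase, fell by 1.66 in the former and by 2.33 in the latter, and Pttg1 rose by 1.84 and 1.17. By the interaction 2 were lower, beside 8.75% of all genes, Espl1 at -0.70.

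Most genes of condensin, the related SMC complex that compacts mitotic chromosomes, fell in each of the 4 comparisons. All 8 of its genes were called lower in KO against WT (median -0.76) and in KOL against WTL (median -1.18), with Ncapg2, of condensin II, at -1.51 and -1.72. LPS lowered 7 of the 8 in WT cells and 6 in CTCF-deficient cells, Ncapd2, of condensin I, falling by 1.21 and by 1.92. Ncaph2 passed in neither (-0.14 and 0.01), and Smc4 was at -0.04 in the latter. The shares of all genes called lower were 22.4%, 23.3%, 30.2% and 33.9% in these comparisons, and the shares called higher 22.2%, 21.4%, 30% and 33.6%. Over the same comparisons, 13 proliferation markers had 2 higher and 10 lower in KO, 1 and 9 in KOL against WTL, and 1 and 11 in KOL against KO, while 11 were lower in WTL against WT. Mki67, a marker of cycling cells, was at -0.74 in KO and -0.97 in KOL. The markers called higher in KO were Mcm2 (0.58) and Pcna (0.27). Pcna was also the one called higher with LPS present, at 0.78 between the genotypes, and after LPS in CTCF-deficient cells, at 0.63. The summed TPM of these markers was 828 to 888 in WT, 642 to 654 in KO, 435 to 511 in WTL and 450 to 496 in KOL. Of this sum, Pcna alone supplied 160 to 194 TPM in WTL and 278 to 319 TPM in KOL. The similar sums of WTL and KOL therefore do not show the 9 markers called lower, among them Ccnb1 at -1.47. The part of cycling cells in the levels of the cohesin genes was not tested.

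Of 7 genes of SMC5/6, an SMC complex of DNA repair, 1 was higher and 2 lower in KO, beside 22.2% and 22.4% of all genes, and Nsmce4a, a subunit of it, had the largest fall of the list at -2.90, from 315 to 362 normalized counts in WT to 43.1 to 47.0 in KO. It stood at -2.04 in KOL against WTL. Smc6 itself was lower after LPS, by 0.56 in WT cells (-0.56) and by 1.18 in CTCF-deficient cells (-1.18). Of 10 genes of proteins known to work with CTCF, 1 was higher and 2 lower in KO, beside the same shares, Parp1, which modifies CTCF with ADP-ribose, rising by 0.55 and Patz1, a zinc finger protein, falling by 0.66. LPS lowered 6 of them and raised 2 in each genotype, beside 30% to 33.9% of all genes in either direction, with Parp1 at -1.04 in WT and -1.08 in CTCF-deficient cells and Top2b, a topoisomerase found at loop ends, at -0.52 and -0.71. The germline forms Ctcfl, Rad21l and Smc1b had at most 3 counts in every library, which is at the limit of detection. Only Stag3 of the 5 germline genes passed the filter, with group means of 5.11 to 11.1 normalized counts, and it did not pass the test in any comparison.

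Genes whose pattern over the 12 libraries was most like that of Ctcf were Fads2 (Pearson r 0.99 of log2 normalized counts among 9338 genes with a mean of at least 100), Itga1, Ppm1f, Lpl and Ipmk, each with r near 0.98. Fads2, a fatty acid desaturase, had group means of 445 in WT, 292 in WTL, 129 in KO and 131 in KOL, the same order from WT to WTL to the CTCF-deficient groups. For Rad21 they were Wsb1 (0.96), Brd7, Cfdp1, Cd72 and Spp1, each near 0.96. These libraries share their groups, so such values describe the pattern and carry no p. Among the 45 pairs of the 10 genes, r ran from -0.83 for Rad21 with Stag1 to 0.93 for Smc1a with Pds5b, with a median of 0.17. The 10 genes therefore did not move as a block. Smc3 and Stag1 were nearest to each other (0.78), Wapl was nearest to Pds5a (0.84), and Ctcf was nearest to Pds5a (0.68) and farthest from Stag1 (-0.78).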

How the data were processed

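RNA was isolated from the 12 BMDC cultures and sequenced after depletion of ribosomal RNA per the labels, whereas the study's methods name a stranded poly(A) kit. Reads were aligned to mm10 with STAR 2.5.1 and quantified with RSEM, per the labels. The authors deposited an expected count, RSEM's estimate of reads per gene, for each library, together with the TPM, which keeps no depth, and the weighted transcript length. Whether RSEM used the strand is not given in the sources used here, so antisense reads cannot be told apart; annotated genes overlapping the 10 genes had at most 25.0 expected counts.

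Expected counts were rounded, filtered by group (14008 genes kept), scaled by TMM and fitted in 1 quasi-likelihood model of all 12 libraries with edgeR 4.0.16 in R 4.3.3. Genes with a Benjamini-Hochberg adjusted p under 0.05 over all genes tested were called. DESeq2 1.42.0, limma 3.58.1, other scalings, filters and samples served as alternatives, and the fit was tested on simulated data. The 10 genes and the lists were chosen with earlier results of these data known. From the lists, the largest called rise and fall and the 2 genes of highest mean were eligible to be named. At this depth, counts of at most 3 were read as not detected, and intervals cover the spread between libraries.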

Additional observations from a re-analysis of the deposited data

Results flagged for a closer look

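One value differed between the genotypes by the test of the difference itself. The LPS response of Smc3 was higher by 0.47 log2 units in CTCF-deficient than in WT cells (edgeR's interaction test, Benjamini-Hochberg adjusted p = 0.0224), with Smc3 lower after LPS in every WTL library and in every KOL library. The value lay between 0.39 and 0.57 when 1 library was left out, and the call was lost without WTL replicate 2, KO replicate 1 or KO replicate 2.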

How the results depend on the processing

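Alternatives changed no direction of the calls on CTCF depletion. In KO against WT, the genes called higher and lower were 4 and 6 with edgeR on the 6 libraries (beside 30.7% and 31.3% of all genes), 1 and 5 with limma on log2(TPM + 1) or log2(TPM + 0.1) (12.5% to 13.4% and 22.5% to 23.5%), and 5 lower under library size alone (29.3%) or with a transcript length offset (25.2%), where Nipbl turned to -0.019. In KOL against WTL, 1 gene was called higher with limma at either pseudocount or centred on the median gene (15.2% to 19% of all genes), and 1 higher and 1 lower past the study's fold cutoff (12.5% each).

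Scaling moved the LPS comparisons most. In WTL against WT, 0 were higher and 9 lower with limma at either pseudocount and under library size alone (12.6% to 14.5% and 55.6% to 60.1% of all genes), 2 were higher with the length offset (31.6%), and 0 and 0 passed the fold cutoff (12.6% and 9.99%). With pseudocounts of 1 and 0.1 and under library size alone, respectively, Rad21 was -0.41, -0.42 and -0.41, Stag1 -0.44, -0.47 and -0.46, Stag2 -0.083, -0.085 and -0.16, Wapl -0.36, -0.37 and -0.37, and Pds5a -0.43, -0.44 and -0.45. In KOL against KO, 0 were higher in all 3 (16.7% to 20.5%), 8 were lower under library size alone (52.2%), 2 were higher with limma centred on the median gene (32.8%), 4 were higher with the length offset (35.1%), and 0 and 0 passed the fold cutoff (15.1% and 13%). There, in the same order, Rad21 was -0.090, -0.092 and -0.0063, Stag2 -0.23, -0.23 and -0.20, Wapl -0.20, -0.21 and -0.24, Pds5a -0.29, -0.30 and -0.33, and Ctcf -0.62, -0.65 and -0.40. Ctcf was -0.18 with centred limma and 0.12 with the length offset. For the interaction, 1 was lower without the filter (4.8%), 3 were higher under library size alone (13.3%) with Ctcf at 0.42, and 2 were higher with the length offset (10.3%) with Ctcf at 0.32. These scalings move the median gene itself, by up to 0.53 log2 units.

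Leaving out libraries gave 2 to 3 lower in KO against WT, and 2 to 3 higher and 2 to 4 lower in KOL against WTL. It gave 0 to 1 higher and 3 to 5 lower in WTL against WT, and 3 to 5 lower in KOL against KO. For the interaction it gave 0 to 3 in each direction, with Ctcf between 0.22 and 0.36. Some differences of genes not called in the full fit crossed 0. In WTL against WT these were Stag1 (-0.12 to 0.14), Pds5a (-0.062 to 0.13) and Rad21 (-0.025 to 0.11). In KOL against WTL they were Stag2 (-0.035 to 0.29) and Wapl (-0.20 to 0.011). The labels do not say whether replicate numbers pair the libraries. Same-numbered deviations correlated between -0.33 and 0.13, but the libraries that stood apart shape these values, so they cannot settle it. With the replicate block, Smc3 lost its call in KOL against KO (-0.22, adjusted p = 0.054), 4 genes being lower, and no other call on the 10 genes changed. The length offset, the joint omission of WTL replicate 1 and KOL replicate 2, library size alone and centred limma were chosen after seeing the data. The cause of these changes was not tested.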
